A study of Homo sapiens with 8 samples.

Results

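The genes of 10 subunits of the RNA exosome, EXOSC1 to EXOSC10, were examined in human HEK293T cells with and without the 5′–3′ exonuclease XRN1. They were chosen by gene symbol, and all 10 were among the 10105 genes of the count table. HEK293T is an established line of human embryonic kidney origin. WT cells and XRN1-null cells, the latter a derivative made by CRISPR/Cas9 editing of XRN1 and with no other treatment, were harvested 24 h after plating. Total mRNA (RNA-Seq) and ribosome-protected fragments (RPF, Ribo-Seq) were each measured in 2 biological replicates per genotype, 8 libraries in all. The XRN1-null cells were a single edited line, so the effect of the genotype and any difference between lines cannot be told apart, and p-values measure only the spread between these samples.

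The RNA exosome degrades and trims RNA from the 3′ end, whereas XRN1 degrades decapped mRNA from the 5′ end, so the exosome and XRN1 act on opposite ends of cytoplasmic mRNA. Its core is a barrel. A ring of heterodimers of RNase PH-like proteins carries a cap of proteins with S1 and KH domains, and RNA is threaded through the channel. In human cells the ring has no ribonuclease activity of its own, and the hydrolytic enzymes DIS3, DIS3L and, mainly in the nucleus, EXOSC10 do the cutting. EXOSC1 (CSL4), EXOSC2 (RRP4) and EXOSC3 (RRP40) form the cap. In the ring, each RRP41-like protein pairs with an RRP42-like protein: EXOSC4 (RRP41) with EXOSC9 (RRP45), EXOSC5 (RRP46) with EXOSC8 (RRP43), and EXOSC6 (MTR3) with EXOSC7 (RRP42).

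The RNA-Seq libraries held 33757487 to 38145433 counts and the Ribo-Seq libraries 1921641 to 4399542, and a member had 891 to 5674 counts in an RNA-Seq library but only 63 to 607 in a Ribo-Seq library. The paper reports fewer mapped RNA-Seq reads than these totals, from paired-end sequencing. Whether both reads of a pair were counted is not stated. Counts were scaled to counts per 1 M counts (CPM) within each assay with TMM factors. Differences are log2 changes of XRN1-null minus WT with their standard error (SE), and were called at an FDR below 0.005 in the quasi-likelihood test of edgeR, adjusted by Benjamini-Hochberg over the whole table. XRN1 served as the check of the labels. Its mRNA was at 33.5 and 33.0 CPM in WT cells and at 282 and 253 CPM in XRN1-null cells, and its footprints were at 34.4 and 49.8 CPM against 22.6 and 18.4 CPM. The footprints were thus lower in both libraries labelled XRN1-null (log2 change −1.08, SE 0.201, FDR = 0.00641, just over the threshold), whereas the mRNA was higher. Without 1 library the footprint change ran from −1.26 to −0.72. It passed with scaling by library totals (FDR = 0.0042) but not with DESeq2 (FDR = 0.0124). Footprints relative to mRNA changed by −4.09 (SE 0.220, FDR = 1.66e-06, interaction of assay and genotype). The count of an edited mRNA does not by itself show whether protein is made, but the paper reports that a western blot detected no XRN1 protein in these cells. Of the markers of the line, VIM, KRT8, KRT18, CDH2, NEFL and NEFM were all present in every RNA-Seq library, and PTPRC, ALB and PECAM1 were not listed in the table.

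The coding sequences of the ring subunits differ in base composition, a property that moved with the change of all genes in both assays. To show this, the middle 90 bases of the coding sequence are printed for 5 of the 6 ring genes, from the GENCODE release 44 reference transcripts mapped to GRCh37, with G and C in capitals.
EXOSC5: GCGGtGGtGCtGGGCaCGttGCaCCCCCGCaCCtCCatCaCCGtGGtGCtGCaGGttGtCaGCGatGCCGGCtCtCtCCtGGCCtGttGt
EXOSC6: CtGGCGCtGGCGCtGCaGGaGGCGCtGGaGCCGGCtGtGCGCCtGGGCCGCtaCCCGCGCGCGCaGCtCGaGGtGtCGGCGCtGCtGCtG
EXOSC7: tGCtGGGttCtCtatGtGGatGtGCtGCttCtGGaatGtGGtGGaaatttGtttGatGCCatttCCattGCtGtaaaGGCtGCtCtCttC
EXOSC8: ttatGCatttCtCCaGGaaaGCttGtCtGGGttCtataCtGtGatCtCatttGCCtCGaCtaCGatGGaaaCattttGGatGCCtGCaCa
EXOSC9: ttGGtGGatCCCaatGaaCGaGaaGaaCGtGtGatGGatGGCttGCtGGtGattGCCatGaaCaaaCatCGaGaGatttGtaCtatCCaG
G or C made up 70 of the 90 bases of EXOSC6 and 60 of the 90 bases of EXOSC5, against 41 in EXOSC7, 39 in EXOSC8 and 41 in EXOSC9. Over the whole coding sequence the GC content was 78.3% in EXOSC6, 64.1% in EXOSC4 and 61.4% in EXOSC5, and 52.4%, 42.0% and 41.8% in EXOSC7, EXOSC9 and EXOSC8.

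The mRNA of 3 of the 10 subunit genes, EXOSC3, EXOSC5 and EXOSC6, was called lower in XRN1-null cells and that of none was called higher. Among all genes, 23.2% were called lower and 22.9% higher, so the share of members called lower was near the background. At the looser FDR of 0.05, EXOSC4 joined the lower genes and EXOSC9 and EXOSC10 were called higher, which made 4 lower and 2 higher (34.2% and 32.8% of all genes). The 10 log2 changes ran from −1.04 to 0.30 with a median of −0.04, and the median of all genes was −0.01. The WT and XRN1-null libraries did not overlap for any member, which also held for 84.7% of all genes.

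**Figure D1:**
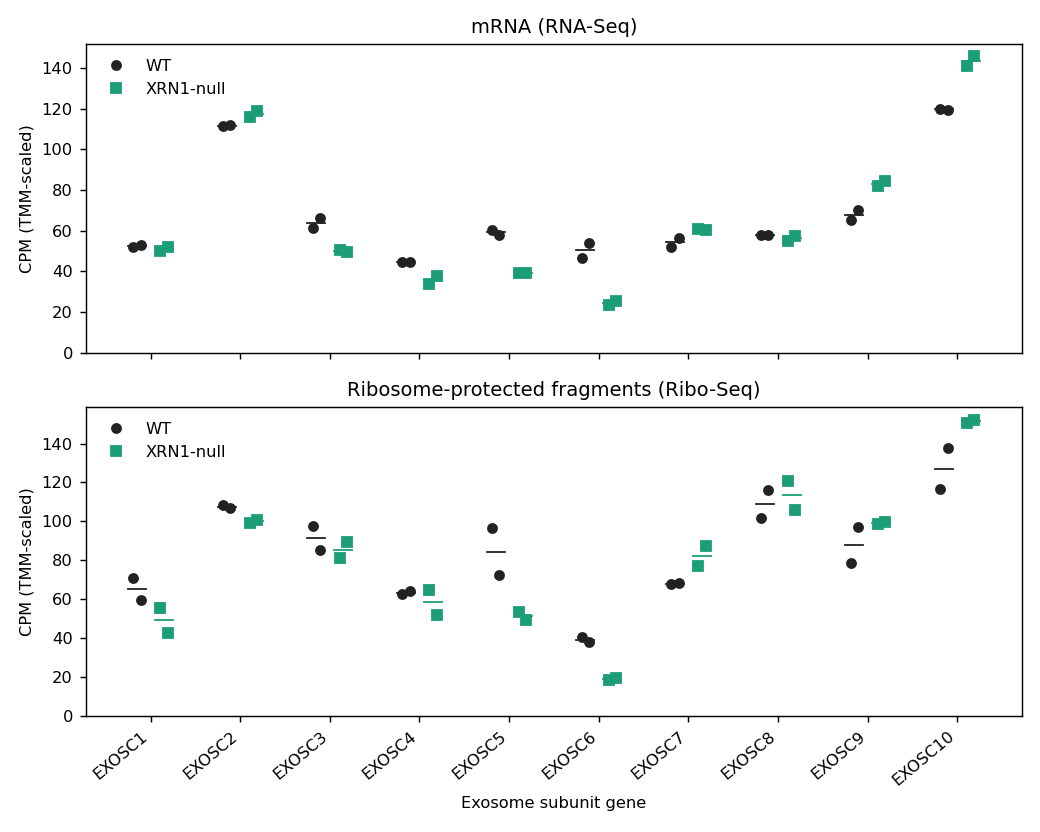
CPM of the 10 exosome subunit genes in each library, mRNA above and RPF below, with WT as circles, XRN1-null as squares and a short line at the mean of the 2 libraries of a group. EXOSC1, EXOSC5 and EXOSC6 lay lower in both XRN1-null libraries than in both WT libraries in both assays, and EXOSC7, EXOSC9 and EXOSC10 lay higher. The mRNA change of EXOSC1 was smaller than its SE. Among all genes, the groups did not overlap for 84.7% in mRNA and 64.4% in RPF.

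Without an offset for GC content, the largest falls in mRNA among the members were those of EXOSC6 and EXOSC5, both RRP41-like ring genes, and with it those of EXOSC5 and EXOSC3 (0.40), next to EXOSC6. EXOSC6, which pairs with EXOSC7 at the ring, is a gene of a single exon on chromosome 16 (70280681 to 70285843, minus strand, GRCh37) with no other annotated gene over it. Its mRNA was at 46.6 and 54.2 CPM in WT cells and at 23.6 and 25.3 CPM in XRN1-null cells. Both XRN1-null libraries were far below both WT libraries, and the level fell by 1.04 on the log2 scale, to 0.485 of WT (SE 0.0926, FDR = 6.89e-05). Without any 1 library the log2 change stayed between −1.13 and −0.93. With the GC offset, the fall was 0.39 (FDR = 0.00251). As these are bulk samples, a lower level in each cell and fewer cells with the mRNA cannot be told apart, here and for the other genes.

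EXOSC5, the ring partner of EXOSC8, lies on chromosome 19 (41892276 to 41903267, minus strand) and has 6 exons. Its mRNA was at 60.5 and 57.9 CPM in WT cells and at 39.2 and 39.1 CPM in XRN1-null cells. The 2 libraries of each genotype lay close to each other, and the fall of 0.60 (SE 0.0633, FDR = 0.000153) held its call with the GC offset (−0.59, FDR = 0.000221). The log2 change lay between −0.63 and −0.54 when any 1 library was left out. The call was lost when RNA-Seq counts were thinned to the Ribo-Seq totals (−0.40, FDR = 0.0128). An annotated gene on the opposite strand overlaps its exons.

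EXOSC4, the partner of EXOSC9, is annotated on chromosome 8 (145133551 to 145135551, plus strand) with 3 exons. Its mRNA was at 44.9 and 44.5 CPM in WT cells and at 34.0 and 37.6 CPM in XRN1-null cells. It was lower in both XRN1-null libraries, but its log2 change of −0.32 (SE 0.0741, FDR = 0.00611) missed the threshold. It passed with the likelihood ratio test (FDR = 0.000281), and was farther from the threshold with thinned counts (FDR = 0.201) and with the GC offset (FDR = 0.018). Leaving out 1 library gave log2 changes from −0.40 to −0.25. All 3 RRP41-like genes thus had a negative mRNA change, 2 of them past the threshold that 23.2% of all genes passed in this direction, but the members were set in these groups after their values had been seen. An annotated gene runs over EXOSC4 on the same strand, with which its reads could be shared.

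None of the 3 RRP42-like ring genes passed the threshold. EXOSC9 (chromosome 4, 122722473 to 122738176, 12 exons) was at 65.2 and 70.0 CPM in WT cells and at 81.9 and 84.4 CPM in XRN1-null cells. Both XRN1-null libraries were higher, with a log2 change of 0.30 (SE 0.0672, FDR = 0.00549) just short of the threshold. It passed with RLE factors (FDR = 0.00389), library totals (FDR = 0.00221), DESeq2 (FDR = 0.00158) and the likelihood ratio test (FDR = 0.000387). It was farther from the threshold with thinned counts (FDR = 0.149) and with the GC offset (FDR = 0.0381). When 1 library was left out, the log2 change ran from 0.27 to 0.35. The gene shares 578 bases at its end with CCNA2 on the opposite strand, and no source names a strand-specific library, so reads of the 2 genes there cannot be told apart.

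EXOSC7 (chromosome 3, 45016733 to 45077558, 8 exons) was at 52.2 and 56.5 CPM in WT cells and at 60.8 and 60.5 CPM in XRN1-null cells, a log2 change of 0.16 (SE 0.0671, FDR = 0.0676). Without 1 library the log2 change of EXOSC7 ran from 0.12 to 0.22. EXOSC8 (chromosome 13, 37572953 to 37600018, 11 exons) was at 57.9 CPM in both WT libraries and at 54.8 and 57.6 CPM in XRN1-null cells, a log2 change of −0.04 (SE 0.0631, FDR = 0.573). EXOSC7 was slightly higher in XRN1-null cells, and the change of EXOSC8 was smaller than its SE. With the GC offset EXOSC8 was at −0.15 (FDR = 0.0714), and without 1 library it ran from −0.0788 to −0.00698. Exons of EXOSC8 are overlapped by SUPT20H on the opposite strand, and those of EXOSC7 by CLEC3B on the same strand, so reads could be shared.

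Of the cap genes, EXOSC3 alone was called. EXOSC3 (chromosome 9, 37759231 to 37832114, 4 exons) was at 61.4 and 66.1 CPM in WT cells and at 50.7 and 49.7 CPM in XRN1-null cells, a fall of 0.35 (SE 0.0668, FDR = 0.00267). An annotated protein-coding gene runs over EXOSC3 and its exons on the same strand, with which its reads could be shared. Both XRN1-null libraries were lower, but the call did not hold with scaling by library totals (FDR = 0.00563) or with thinned counts (FDR = 0.0275). Without 1 library the log2 change of EXOSC3 ran from −0.38 to −0.29.

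EXOSC1 (chromosome 10, 99195666 to 99205774, 8 exons) was at 52.2 and 53.0 CPM in WT cells and at 50.0 and 51.9 CPM in XRN1-null cells, a log2 change of −0.05 (SE 0.0623, FDR = 0.537). EXOSC2 (chromosome 9, 133569108 to 133582675, 9 exons) was at 111.4 and 111.9 CPM in WT cells and at 115.7 and 119.1 CPM in XRN1-null cells, a log2 change of 0.07 (SE 0.0611, FDR = 0.322). In the main fit, both of these cap genes differed by 5.14% or less between the genotypes. With the GC offset the log2 changes were −0.10 for EXOSC1 and 0.02 for EXOSC2, and with library totals 0.01 and 0.13.

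EXOSC10 (RRP6, chromosome 1, 11126675 to 11159926, 25 exons), the nuclear 3′–5′ exonuclease, was at 120.0 and 119.5 CPM in WT cells and at 141.2 and 145.8 CPM in XRN1-null cells. Both XRN1-null libraries were higher, and the log2 change of 0.26 (SE 0.0611, FDR = 0.00669) missed the threshold. It passed with library totals (FDR = 0.00288), DESeq2 (FDR = 0.0027) and the likelihood ratio test (FDR = 0.00148), but not with the GC offset (0.21, FDR = 0.0175). The log2 change without 1 library ran from 0.24 to 0.28.

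**Figure D2:**
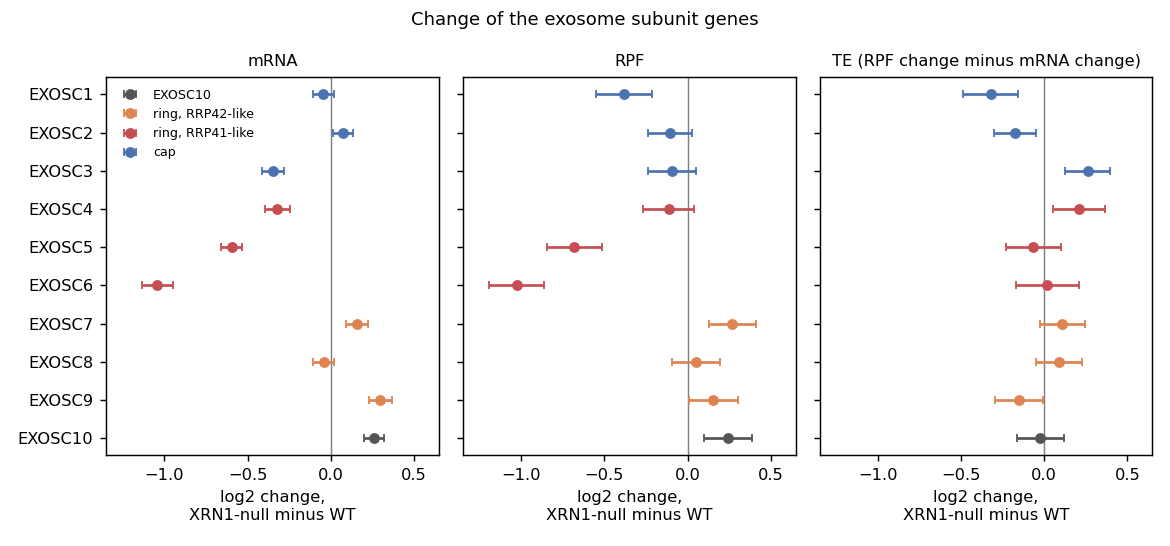
Log2 change (XRN1-null minus WT, points) with its SE (bars) for mRNA, RPF and translational efficiency (TE) of each subunit gene, coloured by its place in the complex. In the mRNA and RPF panels EXOSC5 and EXOSC6 lay farthest to the left, and all 10 TE changes lay between −0.32 and 0.26.

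In Ribo-Seq, EXOSC6 was the only subunit gene called, and it was lower in XRN1-null cells. Among all genes, 1.14% were called lower and 0.633% higher. At the FDR of 0.05, EXOSC5 was also lower, so 2 of the 10 were lower and none higher, against 8.38% and 7.07% of all genes. The median log2 change in RPF of the members was −0.10 and that of all genes −0.00. The groups did not overlap for 7 of the 10 members and for 64.4% of all genes, and the overlapping members were EXOSC3, EXOSC4 and EXOSC8.

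RPF of EXOSC6 were at 40.6 and 37.9 CPM in WT cells and at 18.6 and 19.7 CPM in XRN1-null cells, from 63 to 165 counts a library. Both XRN1-null libraries were again far below the WT libraries, at 0.491 of WT (log2 change −1.03, SE 0.165, FDR = 0.00373). The call was lost with the GC offset, under which the fall was 0.25 (FDR = 0.322), and with DESeq2 (FDR = 0.0103). Without 1 library the log2 change ran from −1.08 to −0.98.

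RPF of EXOSC5 were at 96.4 and 72.4 CPM in WT cells and at 53.6 and 49.3 CPM in XRN1-null cells. The WT libraries were far apart but both above the XRN1-null libraries (log2 change −0.68, SE 0.165, FDR = 0.0188). When 1 library was left out, the log2 change ran from −0.89 to −0.48. EXOSC5 passed 0.005 with the likelihood ratio test (FDR = 0.00139) and with a term for the replicate number (FDR = 0.000233). It missed 0.05 with the GC offset (FDR = 0.0542). RPF of EXOSC4, at 62.5 and 64.3 CPM in WT cells and at 64.8 and 52.1 CPM in XRN1-null cells, overlapped between the genotypes (log2 change −0.11, SE 0.153, FDR = 0.631).

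The RRP42-like genes had RPF changes between 0.05 and 0.27, none past either threshold. EXOSC7 was at 67.7 and 68.2 CPM in WT cells and at 77.0 and 87.4 CPM in XRN1-null cells (log2 change 0.27, SE 0.142, FDR = 0.205). EXOSC8 was at 101.6 and 116.0 CPM in WT cells and at 120.9 and 105.8 CPM in XRN1-null cells (log2 change 0.05, SE 0.145, FDR = 0.831). EXOSC9 was at 78.7 and 97.2 CPM in WT cells and at 98.6 and 99.9 CPM in XRN1-null cells (log2 change 0.16, SE 0.147, FDR = 0.485). EXOSC7 was the one of these whose genotypes lay clearly apart, EXOSC8 libraries were interleaved, and for EXOSC9 WT replicate 2 lay next to the XRN1-null libraries. Without WT replicate 2 the log2 change of EXOSC9 was 0.35.

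Among the cap genes and EXOSC10 no RPF change passed either threshold. EXOSC1 was at 70.8 and 59.7 CPM in WT cells and at 55.4 and 42.8 CPM in XRN1-null cells (log2 change −0.38, SE 0.167, FDR = 0.134). EXOSC2 was at 108.3 and 106.8 CPM in WT cells and at 99.1 and 100.8 CPM in XRN1-null cells (log2 change −0.11, SE 0.135, FDR = 0.611). Both were lower in each XRN1-null library. EXOSC3, whose mRNA was called lower, had RPF of 97.4 and 85.2 CPM in WT cells and of 81.0 and 89.3 CPM in XRN1-null cells, which overlapped (log2 change −0.09, SE 0.143, FDR = 0.684). EXOSC10 was at 116.7 and 137.6 CPM in WT cells and at 150.7 and 152.0 CPM in XRN1-null cells, higher in both of the latter (log2 change 0.24, SE 0.143, FDR = 0.26). Without WT replicate 2, the log2 change was −0.50 for EXOSC1 and 0.39 for EXOSC10.

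Since the ring is built of heterodimers, the RRP41-like gene of each pair was also set against its RRP42-like partner within the same library, where library scaling cancels. As the grouping was made after the values had been seen, these ratios are a description with no test. Gene width also cancels in the change of a ratio, but not in the ratio itself. For mRNA, EXOSC6 to EXOSC7 stood at 0.892 and 0.960 in WT cells against 0.387 and 0.418 in XRN1-null cells, so the mean ratio fell by 56.5%. For EXOSC5 to EXOSC8 the WT libraries gave 1.04 and 1.00 and the XRN1-null libraries 0.716 and 0.679, and the mean fell by 31.8%. For EXOSC4 to EXOSC9 the WT libraries gave 0.688 and 0.636 and the XRN1-null libraries 0.415 and 0.445, and the mean fell by 35.1%. The mean ratio was thus lower in XRN1-null cells for each pair.

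The RPF ratios as measured were lower in XRN1-null cells too. EXOSC6 to EXOSC7 stood at 0.600 and 0.556 in WT cells against 0.242 and 0.225 in XRN1-null cells. EXOSC5 to EXOSC8 stood at 0.949 and 0.624 against 0.444 and 0.466. EXOSC4 to EXOSC9 stood at 0.795 and 0.662 against 0.657 and 0.522. The genotypes did not overlap for any pair, but for EXOSC4 to EXOSC9 the higher XRN1-null library lay next to the lower WT library (0.657 against 0.662). Single genes did not overlap in 84.7% of cases in RNA-Seq and 64.4% in Ribo-Seq. The share for ratios of gene pairs was not counted. In each pair the RRP41-like gene had the higher coding GC content. Taken as the difference of the members' log2 changes, the EXOSC6 to EXOSC7 ratio changed by −1.20 in mRNA and −1.30 in RPF, and with the GC offset by −0.50 and −0.52. With the offset, EXOSC5 to EXOSC8 changed by −0.44 in mRNA and −0.35 in RPF (without it −0.55 and −0.73), and EXOSC4 to EXOSC9 by −0.43 in mRNA (without it −0.62) but by 0.20 in RPF (without it −0.27), a turned direction.

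**Figure D3:**
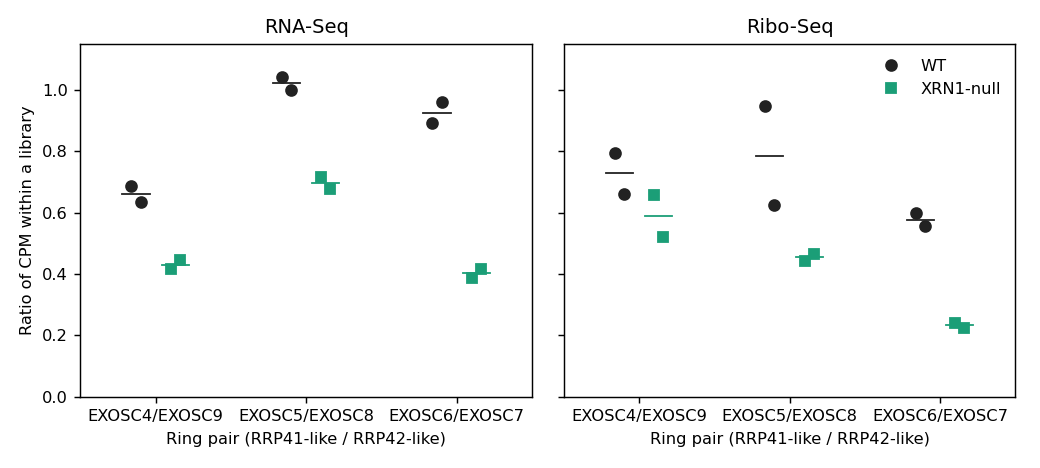
Ratio of the CPM of the RRP41-like to that of the RRP42-like gene of each ring pair in each library (circles WT, squares XRN1-null, lines the mean of 2 libraries). The XRN1-null libraries lay below the WT libraries for every pair in both assays, narrowly for EXOSC4 to EXOSC9 in Ribo-Seq. The share of all gene pairs that separate in this way was not counted.

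The GC content of the coding sequence moved with the change of all genes. When the 9772 genes with a coding sequence were split into 5 equal classes by GC content, the median mRNA change went from 0.05 in the lowest class to −0.11 in the highest, and the share called lower from 15.6% to 31.6%. The median RPF change went from 0.19 to −0.26. EXOSC4, EXOSC5 and EXOSC6 were in the highest class, EXOSC8 and EXOSC9 in the lowest, and the other members in the middle class. The mRNA changes of EXOSC4, EXOSC5 and EXOSC6 were below the median of their class, whereas in RPF EXOSC5 and EXOSC6 were below it and EXOSC4 above. With the GC offset the mRNA calls were again EXOSC3, EXOSC5 and EXOSC6. In Ribo-Seq the offset left none called, moved EXOSC5 to −0.48 (FDR = 0.0542), and turned the direction of EXOSC4 (0.18), EXOSC8 (−0.13) and EXOSC9 (−0.02). EXOSC6 lay at the edge of this fit, as 3 of the 9772 genes had a GC content of 78% or more and 21 had 75% or more.

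TE, the RPF of a gene relative to its mRNA, was called changed for none of the 10 members at an FDR of 0.005 or of 0.05, from the interaction of assay and genotype over all 8 libraries. Among all genes, 1.78% were called lower and 0.0495% higher at 0.005, and 6.46% and 1.02% at 0.05. The log2 changes in TE ran from −0.32 for EXOSC1 (SE 0.166, FDR = 0.271) to 0.26 for EXOSC3 (SE 0.137, FDR = 0.282). For EXOSC6 the change was 0.02 (SE 0.191, FDR = 0.97), and for EXOSC5 it was −0.07 (SE 0.165, FDR = 0.852). The fall in mRNA and that in RPF of EXOSC6 thus differed by less than the SE of the difference.

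Levels of different members were compared per kb. With the deposited gene width as the length, mRNA levels in WT cells spanned 2.01-fold, from EXOSC5 (59.6 ± 1.83 CPM per kb, SD, n = 2) through EXOSC4 (50.0 ± 0.251), EXOSC2 (42.8 ± 0.140), EXOSC10 (42.1 ± 0.120), EXOSC9 (41.1 ± 2.08), EXOSC8 (41.0 ± 0.0129), EXOSC1 (39.9 ± 0.416), EXOSC7 (35.8 ± 1.99) and EXOSC3 (34.6 ± 1.80) to EXOSC6 (29.6 ± 3.18). The libraries of 3 of the 9 pairs of neighbours in this order overlapped, namely EXOSC10 with EXOSC9, EXOSC9 with EXOSC8, and EXOSC7 with EXOSC3. All 10 stood at or above the 71.9th percentile of all genes. In XRN1-null cells the span was 3.52-fold. EXOSC9 (50.6 ± 1.06 CPM per kb) and EXOSC10 (50.5 ± 1.13 CPM per kb) were then highest, with overlapping libraries, and EXOSC6 lowest (14.4 ± 0.729 CPM per kb), while EXOSC5 (39.4 ± 0.0907 CPM per kb) was among 5 genes, with EXOSC4, EXOSC7, EXOSC8 and EXOSC1, that followed each other with overlapping libraries.

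RPF in WT cells, per kb of coding sequence, spanned 2.74-fold, with EXOSC8 highest (131 ± 12.3 CPM per kb) and EXOSC6 (47.9 ± 2.35) and EXOSC10 (47.8 ± 5.56) lowest and overlapping. EXOSC2, EXOSC5, EXOSC1 and EXOSC3 followed EXOSC8 with overlapping libraries, from 122 to 110 CPM per kb. In XRN1-null cells the span was 5.84-fold, from EXOSC8 (136 ± 12.9) to EXOSC6 (23.4 ± 0.899), so EXOSC6 then stood alone at the bottom of the order.

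The ratio of the RPF CPM of each library to the mean mRNA CPM of its genotype, in which length cancels if the same length is used for both, in WT cells was highest for EXOSC8 (1.88 ± 0.176, SD, n = 2, the 94.3rd percentile of all genes) and lowest for EXOSC6 (0.779 ± 0.0383, the 46.5th percentile). Its neighbours in the order overlapped in 6 of 9 cases. With RPF per coding kb and mRNA per kb of width, EXOSC10 was lowest instead (1.13 ± 0.132). For EXOSC6 the deposited width was 1700 nt, whereas the GENCODE reference transcript is 5163 nt long, so its levels per kb of width rest on that choice. To compare the sequences around the start codon of these genes, the 6 bases before it, the start codon in capitals and the 7 bases after it are given from the GENCODE transcripts (GRCh37).
EXOSC8: gggaagATGgcggctg
EXOSC3: cccgcgATGgccgaac
EXOSC6: accgccATGcctgggg
EXOSC9: aacaccATGaaggaaa
EXOSC10: gaaaaaATGgcgccac
All 10 members had a purine at the third base before the start codon, as had 87.9% of 9729 genes, and 8 of them also had a G right after it, a pair of features found in 48.2% of these genes. EXOSC6 and EXOSC9 lacked that G. In WT cells the RPF to mRNA ratio was 0.779 for EXOSC6 and 1.30 for EXOSC9. With RPF per coding kb and mRNA per kb of width, it was 1.62 for both.

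Genes of 20 partners of the exosome were examined beside the members. In mRNA 9 of them were called higher in XRN1-null cells and 3 lower (22.9% and 23.2% of all genes), with 8 that passed in no comparison and whose mRNA changes ran from −0.34 to 0.24, and the median of the 20 was 0.19. DIS3, the catalytic subunit bound below the ring, rose by 0.83 (SE 0.0890, FDR = 0.000156), and DIS3L2, an exonuclease that works without the exosome, rose by 0.68 (SE 0.0934, FDR = 0.000514). SKIV2L and TTC37, the helicase and the scaffold of the SKI complex that feeds cytoplasmic mRNA to the exosome, rose by 0.34 (SE 0.0629, FDR = 0.00214) and 0.33 (SE 0.0635, FDR = 0.00247).

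Nuclear partners moved in both directions. The helicase SKIV2L2 (MTR4) rose by 0.70 (SE 0.117, FDR = 0.00135). ZCCHC8 of the NEXT complex rose the most, by 1.30 (SE 0.0698, FDR = 9.97e-06), followed by SRRT (ARS2), which binds the nuclear cap-binding complex, by 1.20 (SE 0.139, FDR = 0.000217). NRDE2, a regulator of MTR4, rose by 0.85 and ZFC3H1, of the PAXT connection, by 0.67. MPHOSPH6, a partner of nuclear exosomes, fell by 0.98 (SE 0.0905, FDR = 8.04e-05), the poly(A) polymerase PAPD5 of TRAMP-like complexes fell by 0.48 and the poly(A)-binding protein PABPN1 fell by 0.40. With thinned RNA-Seq counts DIS3L2, TTC37, PAPD5 and PABPN1 were no longer called, and TTC37 was also lost with the GC offset (FDR = 0.0158). Leaving out 1 library, log2 changes ran from 0.31 to 0.38 for SKIV2L and 0.30 to 0.39 for TTC37. For PAPD5 they ran from −0.52 to −0.42 and for PABPN1 from −0.43 to −0.35. They ran from 1.00 to 1.46 for SRRT, 0.65 to 1.12 for NRDE2 and 0.53 to 0.90 for SKIV2L2. WT libraries of SRRT (114 and 158 CPM), NRDE2 (18.1 and 25.5 CPM) and SKIV2L2 (80.4 and 105 CPM) lay apart. Without WT replicate 2, SRRT (1.46) rose more than ZCCHC8 (1.36).

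In Ribo-Seq none of the 20 partners was called at 0.005, and 4 were higher and 1 lower at 0.05 (7.07% and 8.38% of all genes), with a median of 0.22. Those higher were DIS3 (0.61), ZFC3H1 (1.00), SRRT (0.60) and NRDE2 (1.03), and the lower one was MPHOSPH6 (−0.57). In TE, ZCCHC8 was lower (−0.98, SE 0.141, FDR = 0.00163), and it was the only partner called, in a direction in which 1.78% of all genes were called. Its TE change ran from −1.03 to −0.94 when 1 library was left out. DIS3 mRNA was thus higher in the same cells in which EXOSC5 and EXOSC6 mRNA was lower. Whether members and partner genes differed in their share of calls was not tested.

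**Figure D4:**
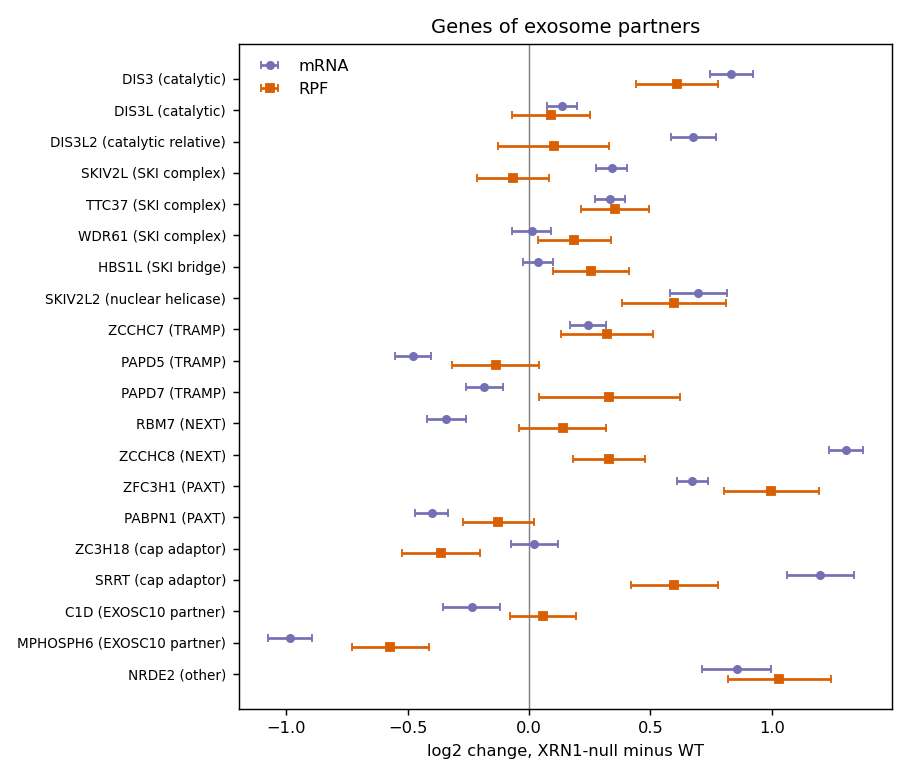
Log2 change (XRN1-null minus WT) with its SE for mRNA (circles) and RPF (squares) of 20 genes of exosome partners, named with their complex. The genes called at an FDR of 0.05 in Ribo-Seq, namely DIS3, ZFC3H1, SRRT and NRDE2 to the right and MPHOSPH6 to the left, lay on the same side in mRNA, and SKIV2L2, ZCCHC8 and TTC37 are among the others to the right in both assays.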

How the data were processed

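RNA-Seq and Ribo-Seq libraries of WT and XRN1-null HEK293T cells, 2 biological replicates each, were grouped by their labels. The authors filtered out rRNA with Bowtie2, aligned to hg19 with TopHat2, selected footprints by length, kept genes above an FPKM minimum and deposited the unscaled count of each gene from QuasR beside its width. Deposited log2 fold changes, p-values and TE values of the authors' own comparisons were not used.

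From the counts of all 10105 genes, edgeR 4.0.16 (R 4.3.3) was run with TMM factors within each assay and its quasi-likelihood test, with genotype as the only term per assay and assay, genotype and their interaction for TE. FDR are Benjamini-Hochberg values. SE are the log2 change divided by the square root of F. The functions were tested on simulated data. Alternatives were RLE factors, library totals, DESeq2 1.42.0, the likelihood ratio test, at least 10 counts, an FDR of 0.05, blocks, thinned counts and leaving out each library, and an offset for coding GC content (loess, span 0.3), which was chosen after seeing the data.

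Named genes were all 10 members, XRN1, and those of 20 exosome partners past an FDR of 0.005 in any comparison. The members and lists were chosen with earlier results of these data known. GENCODE release 44 on GRCh37 gave positions and coding lengths, for 9772 genes (96.7%). Coding lengths were planned from RefSeq proteins, which were not used here. The low Ribo-Seq depth limits precision. Counts include any PCR duplicates. Python 3.11.15 drew the figures.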

Additional observations from a re-analysis of the deposited data

Results flagged for a closer look

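Apart from XRN1 itself (log2 change in TE −4.09), 1 result stood out because the same contrast differed between the assays. ZCCHC8, whose product is part of the NEXT complex that guides the nuclear exosome, had a log2 change in TE of −0.98 (SE 0.141, FDR = 0.00163 from the interaction of assay and genotype in edgeR's quasi-likelihood test). Its mRNA rose by 1.30, with a WT level of 26.9 ± 1.56 CPM (SD, n = 2) and an XRN1-null level of 66.4 ± 0.135 CPM (SD, n = 2), while its RPF were at 39.2 ± 0.151 and 49.2 ± 0.108 CPM (log2 change 0.33, FDR = 0.142). With the GC offset the TE change was −0.98 (FDR = 0.00161). In all 8 fits that left out a library, the log2 change in TE lay between −1.03 and −0.94.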

How the results depend on the processing

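For mRNA, the 3 members called lower became 1 with thinned counts, 2 with library totals and 4, with EXOSC4, under the likelihood ratio test, an FDR of 0.05 and the replicate block, and the members called higher, none in the main result, became 1 (EXOSC9) with RLE factors and 2 (EXOSC9 and EXOSC10) each with library totals, DESeq2, the likelihood ratio test, an FDR of 0.05 and the replicate block. Their median was 0.012 with library totals, where EXOSC1 (0.0104) and EXOSC8 (0.0137) turned positive, and −0.12 with the GC offset. In Ribo-Seq, the 1 member called lower became 0 with DESeq2 and the GC offset and 2 (EXOSC5 and EXOSC6) with the likelihood ratio test, an FDR of 0.05 and the replicate block. With the block EXOSC1 passed 0.05 (FDR = 0.0448). The GC offset reversed EXOSC4 (0.18), EXOSC8 (−0.13) and EXOSC9 (−0.0192). Partners in Ribo-Seq became 4 higher and 1 lower at 0.05, and 5 higher and 1 lower with the replicate block. In TE no setting called a member, and EXOSC6 turned to −0.0193 with library totals, −0.0059 with at least 10 counts and −0.0282 with TMM over all libraries, and EXOSC5 to 0.12 with the GC offset. The WT span of RPF was 3.68-fold per kb of width and 2.74-fold per coding kb. Leaving out each library gave medians from −0.08 to −0.01 in mRNA and from −0.0884 to −0.0444 in RPF. Without a library, RPF changes ran from −0.28 to 0.0292 for EXOSC4, −0.0458 to 0.18 for EXOSC8, −0.60 to −0.22 for EXOSC1, −0.19 to −0.0014 for EXOSC3, 0.18 to 0.36 for EXOSC7, 0.0348 to 0.35 for EXOSC9 and 0.14 to 0.39 for EXOSC10, the TE median from −0.0385 to 0.0873, and TE changes from −0.53 to −0.16 for EXOSC1, 0.16 to 0.34 for EXOSC3, 0.0338 to 0.35 for EXOSC4, −0.29 to 0.11 for EXOSC5, −0.0912 to 0.11 for EXOSC6, −0.0138 to 0.22 for EXOSC8, −0.26 to 0.0483 for EXOSC9 and −0.12 to 0.13 for EXOSC10. The lone library left in a group was assumed to vary like the others. The spread in such a fit came from its other groups, so its FDR are not given. Same-numbered libraries deviated together with correlations of 0.190 (RNA-Seq), 0.0803 (Ribo-Seq) and 0.0766 (TE), and no label says that a number marks a shared preparation, so the block is only an alternative. Thinning lowers the depth by its construction, and the cause of the other moves was not tested.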
